A study of Rattus norvegicus with 8 samples.

Results

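In 137 promoter runs of the rat genome, the methylation signal climbed steeply from one end to the other, over a median span of 1114 bp. A run is a row of neighbouring array probes with gaps of at most 500 bp. The 137 are the autosomal runs of at least 9 probes in which some, but fewer than 33.3%, of the probes were shorter than 60 bases (mixed runs). The probes of each run were divided by position into 3 segments, and a run was kept where the first and the last segment differed by at least 1 in their mean log2 ratio over 8 arrays. They were taken from 3501 mixed runs, which are part of 19345 autosomal runs of at least 9 probes and of 27739 runs in all. The size of this difference, called the gradient below, is therefore what chose the runs, and it is given as a description with no test. The outer segment with the lower mean is called the lower end and the other the higher end.

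Prefrontal cortex (Cg1, Cg3 and IL sub-regions) was taken from 8 male Sprague-Dawley rats on postnatal day (PND) 62. The 4 PNS rats (C141, C142, C144 and C145) were born to dams restrained in a cylinder under bright light in repeated daily sessions over the last week of pregnancy (prenatal stress), and the 4 Ctrl rats (C180, C182, C184 and C185) to undisturbed dams. One male came from each litter, and each rat was measured once on its own array. Each of the 4 slides carried a Ctrl array in position 1 and a PNS array in position 2, so array position and group cannot be told apart. The dissected tissue holds neurons, glia and vessel cells together, so a change in the methylation of one cell type and a change in cell proportions cannot be told apart either.

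Methylated DNA immunoprecipitation on chip (MeDIP-chip) pulls down sheared DNA with an antibody against 5-methylcytosine and compares the bound DNA with untreated input DNA on the same array. The log2 ratio of bound over input rises with the number of methylated CpG sites in the captured fragment, so it depends on CpG density as well as on methylation, and a ratio of 0 is not the absence of methylation. Many vertebrate promoters lie in CpG islands, GC-rich stretches that mostly stay unmethylated, and the flanks (shores) of an island are where methylation changes over short distances. Array designers shorten probes in GC-rich sequence to keep melting temperatures alike, so a short probe is a rough sign of GC-rich DNA. The positions below are on rn4. Since the arrays' tables pair no probe with a gene and no rn4 annotation was used here, the runs are named by position, and which end faces a transcription start is not known.

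The 8 arrays differed in spread before normalization. The SD of the log2 ratio over all probes was 0.62 to 0.71 in C141, C182 and C180 and 0.99 to 1.23 in the other 5 arrays, and these 3 arrays correlated less with the rest (mean r across probes 0.34 to 0.45, against 0.58 to 0.61). Quantile normalization gave all arrays the same distribution, with a median of -0.11 and with 5% and 95% of probes below -1.23 and 1.10. By the call of the scanner software, 61.0 to 72.9% of input spots on an array exceeded background clearly (well above background), as did 43.6 to 67.1% of bound spots. On the spots of the 137 runs these shares were lower, at 37.6 to 51.8% and 27.2 to 45.3%.

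The steep runs held 1968 probes, with 9 to 28 probes each (median 14), and spanned 470 to 2920 bp (median 1114 bp). Other mixed runs were of similar size, with a median of 16 probes and 1164 bp. All 20 autosomes carried at least 3 steep runs, and chromosome 1 carried the most, 16. The level rose with the coordinate in 64 runs and fell in 73. The median gradient was 1.15 and the largest 2.78, against a median of 0.27 among the 3364 mixed runs that were not chosen. Just inside the limit lay chr14:46781629-46782703 (1.001), chr9:35816258-35817015 (1.002), chr13:76275459-76276278 (1.002) and chr5:29584140-29585104 (1.003). Just outside it lay chr19:40759736-40760954 (0.999), chr6:114159562-114160765 (0.999), chr11:56512573-56513739 (0.999) and chr10:68664402-68665162 (0.998). Steep and other runs thus met at the limit without a gap.

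A gradient of this size was less frequent in mixed runs (3.91%) than in runs with a larger share of short probes (1593 of 15394, 10.3%), and more frequent than in runs made only of full-length probes (8 of 450, 1.78%). Short and full-length autosomal probes had the same median level over the whole array, -0.11.

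The median lower end lay at -0.60, the median middle segment at -0.08 and the median higher end at 0.63. The middle segment lay between the ends in 121 of the 137 runs. In 15 runs it lay below both ends and in 1 run above both. The lower end was below 0 in 115 runs and the higher end above 0 in 126. These are the values that chose the runs. Few had close neighbours that could show where the level went next. Within 5000 bp another run lay beyond the lower end of 6 runs (median level -0.28) and beyond the higher end of 11 (median level -0.10).

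**Figure D1:**
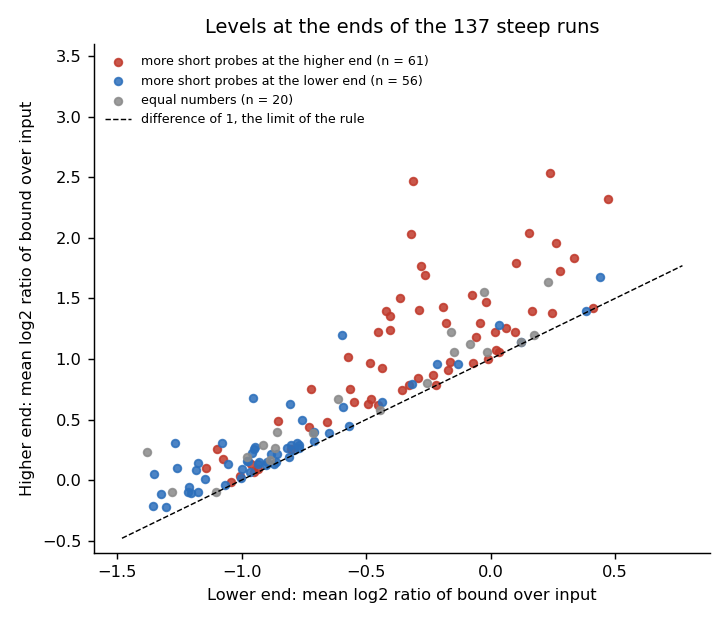
Mean log2 ratio at the lower end (x axis) and at the higher end (y axis) of each of the 137 steep runs, averaged over 8 arrays, with colours for where the short probes lay; the dashed line is the limit of the rule, a difference of 1. Runs with short probes at the higher end reached 2.53 there, and those with short probes at the lower end started as low as -1.35.

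The short probes lay at opposite ends in different runs. This split was made after the levels had been seen and is given as a description. In 61 runs (44.5%) the higher end held more short probes, in 56 (40.9%) the lower end did, and in 20 (14.6%) both held the same number. In the other mixed runs these shares were 33.1, 46.3 and 20.6%. Of the 341 short probes in either end of the steep runs, 46.0% were at the lower end, against 56.1% of 8488 in the other mixed runs. The 95% Clopper-Pearson interval of the 46.0% was 40.7 to 51.5%. It covers counting error only and takes the short probes as independent, although several can lie in the same run. The share in the steep runs depended on the processing: it was 8.33% with normexp, 20.5% in the authors' table, and 66.7% without the 3 arrays of low spread. Without C180 it was 56.0%, with more short probes at the higher end in 67 runs and at the lower end in 97. The balance moved with the size of the gradient. All of the 8 steepest runs held more short probes at the higher end, as did 17 of the 20 steepest and 29 of the 40 steepest.

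The 2 arrangements also sat at different levels. Where short probes were at the higher end, the median run climbed from -0.29 through 0.13 to 1.06. Where short probes were at the lower end, the median run climbed from -0.90 through -0.27 to 0.22. By definition, the first arrangement had more of its short probes where the level was higher, and the second where it was lower. The 20 runs with equal numbers lay between, from -0.53 to 0.62.

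**Figure D2:**
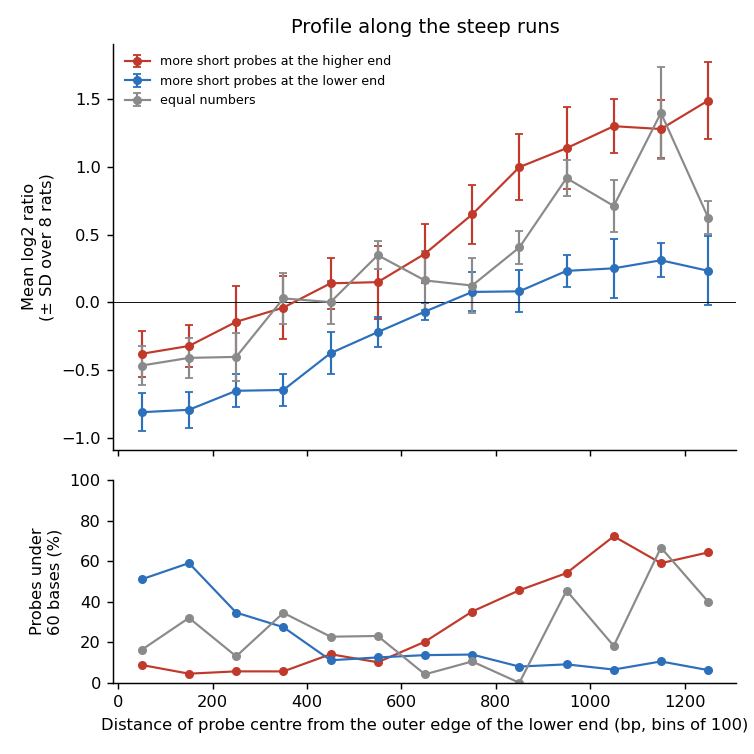
Mean log2 ratio of probes (top, y axis; error bars are the SD over 8 rats) and percentage of probes under 60 bases (bottom, y axis) by distance in bp of the probe centre from the outer edge of the lower end, in bins of 100 bp, for the 3 arrangements of short probes. Runs with short probes at the higher end rose from -0.38 in the first bin to 1.30 in the bin centred on 1050 bp, and those with short probes at the lower end from -0.81 to 0.25, with fewer runs contributing at greater distances.

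Averaged over runs, the level was higher at greater distances from the lower end in both arrangements. With short probes at the higher end, it was -0.38 ± 0.17 (SD, n = 8 rats) in the first bin of 100 bp, 0.14 ± 0.19 in the bin centred on 450 bp and 1.00 ± 0.24 in that centred on 850 bp, while the share of short probes went from 8.77 to 14.1 and 45.6%. With short probes at the lower end, the level was -0.81 ± 0.14, -0.38 ± 0.15 and 0.08 ± 0.16 at the same distances, while the share of short probes went from 51.0 to 11.1 and 8.00%. Distances started at the lower end, and the arrangements were defined by where the short probes lay. That the level rose in both, while the share of short probes rose in one and fell in the other, therefore follows from the rule and the split.

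Both kinds of probe at the same end carried the level. At the higher end of the first arrangement, the 120 full-length probes averaged 0.88 ± 0.22 (SD, n = 8 rats) and the 151 short probes 1.28 ± 0.22. At the lower end of the second, the 129 full-length probes averaged -0.72 ± 0.09 and the 123 short probes -0.91 ± 0.25. The full-length probes of these ends thus lay on the same side as the short probes, which lay somewhat further out. Both kinds are part of the end means that chose the runs, so this is a description. Of the spots of those full-length probes, 57.9% in the bound channel were well above background at the higher end of the first arrangement. At the lower end of the second, 22.7% were.

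In both arrangements the spots of both channels were brighter at the end with more short probes. Where short probes were at the higher end, the input signal rose from a mean log2 intensity of 7.67 ± 0.14 (SD, n = 8 rats) at the lower end to 9.66 ± 0.13 at the higher end, and the bound signal from 7.42 ± 0.14 to 10.81 ± 0.49. Where short probes were at the lower end, the input signal fell from 9.16 ± 0.17 to 7.16 ± 0.06 along the same direction, and the bound signal from 8.33 ± 0.39 to 7.53 ± 0.20. In the first arrangement the bound signal rose more than the input, and in the second it fell less, as the rule requires of the ratio. At the dim ends few spots were measured well: at the lower end of the first arrangement 35.1% of spots in the input channel and 24.8% in the bound channel were well above background, and at the higher end of the second 23.5 and 23.7%. In 28 of the 137 runs at least 50% of input spots were well above background at both ends (17 of 61, 6 of 56 and 5 of 20). A level at a dim end rests on spots near background, and the part of spot brightness in the gradients was not tested beyond the filter described next.

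**Figure D3:**
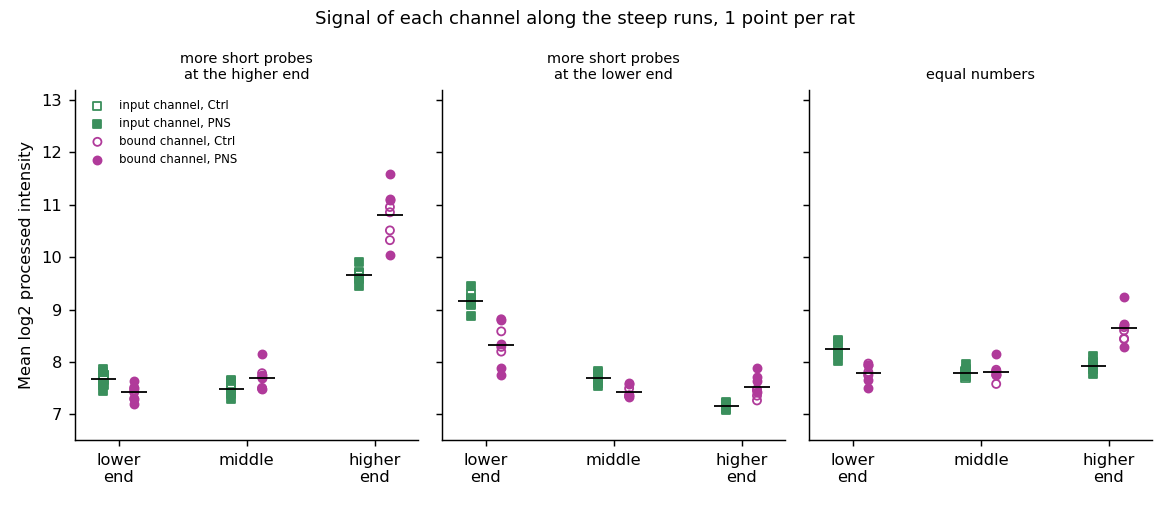
Mean log2 processed intensity (y axis) of the input channel (squares) and the bound channel (circles) at the lower end, in the middle and at the higher end of the steep runs (x axis), 1 point per rat with open symbols for Ctrl and filled for PNS, and a bar at the mean of 8 rats. With short probes at the higher end the bound channel reached 10.81 at that end, and with short probes at the lower end the input channel fell from 9.16 to 7.16.

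With dim spots left out, fewer runs of the second arrangement kept their direction. Probes were kept only if their input spot was well above background on all 8 arrays. A direction could then be read in 114 of the 137 runs, which did not require probes at both original ends. In chr1:185794435-185795573, chr5:94689777-94690713 and chr18:2189062-2190306, all of the second arrangement, no probe of the higher end was kept. Of the 114, all 50 with short probes at the higher end kept the direction of their gradient, with a median of 1.27. Of the 48 with short probes at the lower end, 31 kept it, with a median of 0.28. Where a dim end lost its probes, the filtered gradient does not span the original ends. The filter therefore cannot show whether the original gradient held there. Under that filter 15 mixed runs of at least 9 probes were left in all, and none had a gradient of 1.

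The steepest run was chr15:90213463-90214666, with 19 probes, 5 of them short. Its gradient was 3.42, 2.35, 2.36 and 2.59 in the 4 Ctrl rats (C180, C182, C184, C185, the order used throughout) and 2.23, 2.97, 3.43 and 2.90 in the 4 PNS rats (C141, C142, C144, C145). Every rat was above 2, and the groups overlapped. The lower end ranged from -1.04 to 0.20 over the 8 rats and the higher end from 1.67 to 3.05. Within the run the probe means went from -1.81 at the first probe to 3.39 and 3.27 at the last 2, both of which are 45 bases long. Of the 6 probes at its lower end, 3 were well above background in the input channel on 8 arrays and the others on 0.

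The run chr11:51785496-51786767 reached the highest end of all, 2.53, from 0.24 at the lower end. Its gradient was 2.43, 2.00, 2.18 and 2.75 in Ctrl and 1.39, 2.33, 2.62 and 2.65 in PNS rats. The level changed within it between neighbouring probes, from 0.15 to 1.90. Only 2 of its 15 probes were short, and the 4 full-length probes of the higher end had means of 2.25 to 2.73, with input and bound spots well above background on all 8 arrays. Here the high level was therefore not limited to short probes.

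The gradient of chr14:13547275-13548192 was 2.60, 2.36, 1.89 and 3.00 in Ctrl and 1.65, 2.31, 2.15 and 2.88 in PNS rats. The run chr13:42506036-42507196 had 6 short probes, which made up the whole of its higher end, and its gradient was 3.02, 2.52, 1.26 and 1.99 in Ctrl and 1.35, 2.24, 1.93 and 2.09 in PNS rats. In chr14:104664083-104664952 it was 2.60, 2.15, 1.40 and 1.94 in Ctrl and 1.96, 1.59, 2.08 and 1.93 in PNS rats. In all 3 runs C184 had the smallest gradient among the Ctrl rats and C141 or C142 the smallest among the PNS rats, and the groups overlapped.

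The gradient of chr1:226295375-226296250 varied more among the Ctrl rats than that of the other 7, with 2.82, 1.49, 1.08 and 0.99, against 2.12, 2.76, 2.48 and 1.39 in PNS rats. In chr20:417558-418482, a run of 9 probes with 1 short probe, it was 1.44, 2.00, 1.70 and 1.251 in Ctrl and 1.97, 2.23, 2.34 and 2.03 in PNS rats. In chr2:196001012-196002115 it was 2.33, 1.63, 1.66 and 2.05 in Ctrl and 0.26, 2.03, 2.70 and 2.15 in PNS rats. The value of 0.26 in C141 stood far below the other 7 rats, where the gradient was at least 1.63. In none of the 8 steepest runs did PNS and Ctrl rats separate.

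The run with the most probes was chr3:91407839-91410367, with 28 probes over 2529 bp. Its gradient was 1.71, 1.68, 1.18 and 2.03 in Ctrl and 1.64, 2.56, 1.77 and 1.75 in PNS rats. The level was not even along it: 3 neighbouring probes at the inner edge of its higher end reached 2.14 to 2.97, and further out the level lay between -0.40 and 1.09. The peak of this run was thus inside it and not at its outer edge.

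The direction of the gradient was shared by most rats. It was the same on all 8 arrays in 123 runs, on 7 arrays in 12 and on 6 arrays in 2. The median gradient was 1.29, 1.19, 1.18 and 1.17 in Ctrl and 1.02, 1.42, 1.40 and 1.39 in PNS rats, and 73 to 114 of the 137 runs had a gradient of at least 1 in a single rat. C141 had the lowest median and the fewest such runs, and C142 the most. Because all 8 arrays helped to choose the runs, each rat was also left out in turn, the runs were chosen again on the other 7 arrays, and the rat left out was then read as an array that the choice had not used (all 8 were normalized together). Between 130 and 157 runs were chosen. The direction in the rat left out was the same for 83.4 to 99.3% of them, and its median gradient was 0.82 to 1.33. The lowest shares came from C180 (83.4%), C141 (87.1%) and C182 (89.5%), the 3 arrays of low spread, and the other 5 arrays gave 96.9 to 99.3%.

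**Figure D4:**
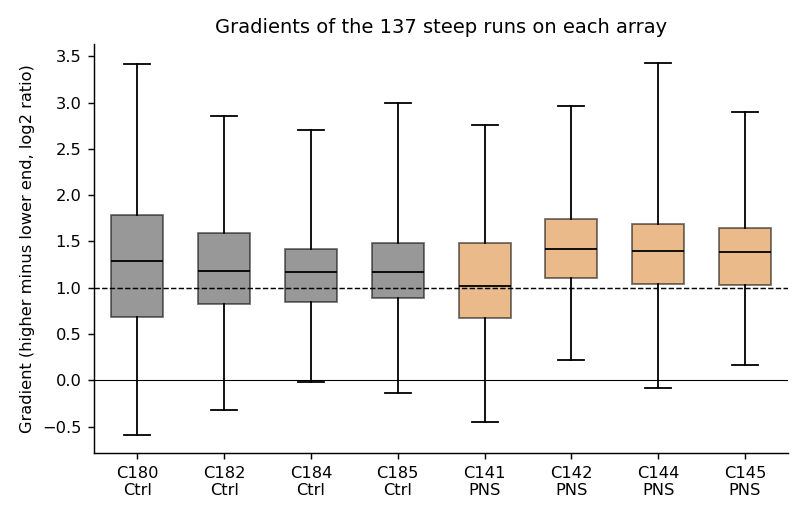
Gradient of the 137 steep runs (y axis, log2 ratio, turned so that it runs from the lower to the higher end of the mean over rats) on the array of each rat (x axis; boxes are quartiles with the median, whiskers the lowest and highest run; grey Ctrl, orange PNS; the dashed line is the limit of 1). The median lay between 1.02 in C141 and 1.42 in C142, and single runs had a gradient below 0 in 6 of the 8 rats.

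The comparison of PNS with Ctrl rats addresses whether stress before birth left a different methylation level in these runs. The rule used the mean over both groups, so it did not use this difference. More single probes were higher in PNS than lower, by the 2-part limit of the first stage (limma p before adjustment no greater than 0.05, absolute difference no smaller than 0.5 on the log2 scale). Of the 1968 probes, 117 (5.95%) passed, against 4.86% of all probes on the array, 77 of them higher in PNS (3.91%, background 2.61%) and 40 lower (2.03%, background 2.25%). No probe passed an adjusted p of 0.05, the smallest adjusted p on the array being 0.968 (limma, Benjamini-Hochberg). The first-stage probes were spread along the runs, with 6.47% of probes at the lower ends, 6.43% in the middle and 4.81% at the higher ends.

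The second stage asked whether the limma statistics of a run's probes ranked higher or lower as a group than those of all other probes (rank-sum test; a call needs an FDR no greater than 0.2 and a first-stage probe in the run). It called 14 of the 137 runs (10.2%), close to the 10.7% of all runs. Of these, 13 were higher in PNS (9.49%, background 5.12%) and 1 was lower (0.73%, background 5.56%). The test treats the probes of a run as independent, although neighbouring probes read the same sheared fragments. This count moved with the rats used, and so did the background. Without C141 the count was 31 of 137, all higher in PNS, beside a background of 20.3%. Without C144 it was 9, beside 6.54%. By arrangement, 8 of the 61 runs with short probes at the higher end, 6 of the 56 with short probes at the lower end and none of the 20 with equal numbers were called.

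When each run was reduced to its mean per rat and tested across rats with limma, no steep run passed an adjusted p of 0.05, and neither did any other run (background 0%). At an unadjusted p of at most 0.05 there were 6 steep runs (4.38%, background 4.03%), all of them higher in PNS (background in that direction 2.24%). The count without C141 was 18, beside a background of 11.03%, and without C144 it was 3, beside 2.14%. The median difference, PNS minus Ctrl, was 0.06 in the steep runs, 0.10 in the other mixed runs and 0.001 in all 25615 runs of at least 3 probes. The median of the steep runs was thus the smaller of those of the 2 kinds of mixed run, a difference that was not tested.

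The run chr3:134080500-134081508 stood first in this comparison. Its mean level was 0.03, -0.42, -0.11 and 0.32 in Ctrl and 0.19, 0.80, 0.85 and 0.85 in PNS rats. C142, C144 and C145 lay above every Ctrl rat, and C141 lay among them. The difference was 0.72 ± 0.20 (SE), with an unadjusted limma p of 0.0044, an adjusted p of 1.00 and an exact permutation p of 0.057 (two-sided, 70 assignments, smallest possible 0.029). The second stage gave it an FDR of 0.0086. Of its 10 probes, 4 passed the first stage, all of them in the middle segment or at the higher end, and the lower end differed by 0.09. The run therefore also had one of the smallest p for a difference in gradient, described below.

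In chr9:81871866-81873107, with the smallest second-stage FDR (0.0021), the mean level was -0.01, 0.31, 0.72 and 0.86 in Ctrl and 0.78, 1.18, 1.12 and 0.92 in PNS rats. C141 overlapped C185, and the other PNS rats lay above every Ctrl rat (exact permutation p = 0.057). In the run of 28 probes, chr3:91407839-91410367 (FDR 0.0037), the mean was -0.04, -0.07, 0.26 and 0.62 in Ctrl and -0.18, 0.96, 0.78 and 0.63 in PNS rats, with C141 lowest of all 8 (exact permutation p = 0.29). In chr10:48934512-48935697 (FDR 0.011) it was 0.53, 0.77, 0.70 and 0.46 in Ctrl and 0.58, 1.43, 1.08 and 0.86 in PNS rats (exact permutation p = 0.11). In these 3 runs the groups overlapped. Within slides, which each carry a Ctrl and a PNS array, the first and the last of them were higher in PNS on all 4 slides.

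The run chr18:2189062-2190306 was one of 3 steep runs whose means did not overlap between the groups (2.19%, background 3.23%). Its mean was -0.93, -0.69, -0.67 and -0.63 in Ctrl and -0.02, -0.55, -0.28 and -0.45 in PNS rats (difference 0.41 ± 0.15 SE, exact permutation p = 0.029, second-stage FDR 0.020). All PNS rats lay above all Ctrl rats, with C142 closest to C185. The first-stage probes of this run lay at its higher end. They were well above background in the input channel on 1 and 0 arrays, and in the bound channel on 0. The probes whose input was well above background on all 8 arrays differed by 0.04, -0.06 and -0.29 (PNS minus Ctrl). The groups did not overlap in chr6:60352780-60353554 either, where the mean was 0.45, -0.22, 0.37 and 0.47 in Ctrl and 0.74, 1.03, 0.84 and 0.56 in PNS rats (difference 0.52 ± 0.18 SE, exact permutation p = 0.029). C182 was well below the other 3 Ctrl rats in that run. For both runs the adjusted limma p was 1.00.

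A few further runs completed those with the smallest p. In chr9:58376905-58377541 the mean was -0.55, -0.44, -0.94 and -0.73 in Ctrl and -0.35, -0.45, -0.23 and -0.23 in PNS rats (exact permutation p = 0.057). The probes of this run with input well above background on 5 to 8 arrays differed by -0.20, 0.32, 0.11 and 0.11 (PNS minus Ctrl). Those with input well above background on 0 arrays differed by 0.68, 0.74, -0.28, 1.07, 0.45 and 0.51. In chr6:72177167-72178354 the mean was -0.28, -0.13, 0.37 and 0.32 in Ctrl and 0.18, 0.56, 0.74 and 0.52 in PNS rats (exact permutation p = 0.086). In chr13:97626139-97627338, called only in the second stage (FDR 0.042), it was 0.65, 0.35, 0.50 and 0.70 in Ctrl and 0.49, 0.97, 0.86 and 0.82 in PNS rats (exact permutation p = 0.17). All 3 were higher on average in PNS with groups that overlapped.

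The gradient itself was compared over all 19345 autosomal runs of at least 9 probes. No run, steep or other, passed an adjusted p of 0.05 with limma (background 0%), the smallest adjusted p being 0.954. On simulated arrays this test recovered 0 of 200 runs with a shift of 1 in the last segment, and 190 of 200 with a shift of 2. The simulated runs were drawn from all autosomal runs of at least 9 probes. Their probes varied independently, unlike neighbouring probes on the arrays, so these counts need not hold there. The lack of calls therefore does not show that the gradients were alike. At an unadjusted p of at most 0.05 there were 10 steep runs (7.30%, background 4.97%), 7 with a larger gradient in PNS (5.11%, background 3.28%) and 3 with a smaller one. The median difference was 0.13 in the steep runs, beside 0.02 in the other mixed runs and 0.05 in all autosomal runs of at least 9 probes, with a median SE of 0.33 for a single steep run. The size of the difference and the count of calls depended on how the arrays were scaled. With arrays centred on their medians and not brought to one distribution, 15 runs passed (background 6.71%), all 15 were larger in PNS, and the median difference was 0.42. In the authors' own table of log2 ratios 4 passed (background 5.51%), 2 of them larger in PNS, and the median difference was 0.16. With loess and with normexp the median difference was 0.07 and 0.02. The SD of the log2 ratio before normalization was 1.16 to 1.23 in C142, C144 and C145 and 0.67 to 1.03 in the Ctrl rats, while C141 had the lowest of all, 0.62; the part of array spread in these differences was not tested. Leaving out C144 gave 5 runs, beside a background of 3.09%.

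By arrangement, the gradient was larger in PNS in 45 of the 56 runs with short probes at the lower end (median difference 0.25), in 35 of the 61 with short probes at the higher end (0.04) and in 10 of the 20 with equal numbers (-0.01). In the other mixed runs the median differences stood in the same order, at 0.10, -0.08 and -0.003. Over the 56 steep runs with short probes at the lower end, that end averaged -0.79 ± 0.09 (SD, n = 4) in Ctrl and -0.84 ± 0.13 in PNS rats, and the higher end 0.25 ± 0.10 and 0.44 ± 0.08. The higher ends, where 23.5% of input spots were well above background, held most of the difference.

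**Figure D5:**
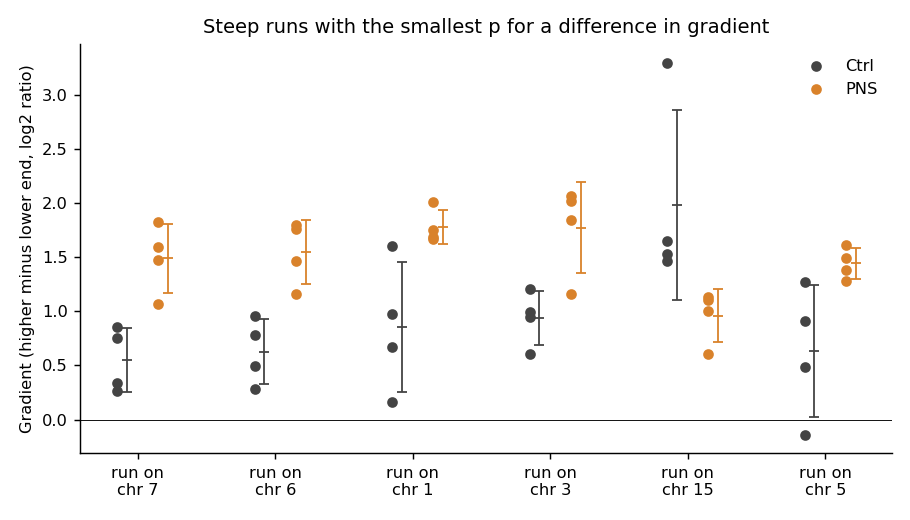
Gradient (y axis, higher minus lower end, log2 ratio) in each of 4 Ctrl (grey) and 4 PNS (orange) rats for the 6 steep runs with the smallest unadjusted p for a difference in gradient (x axis, by chromosome); the bar beside the points is the mean and its whiskers the SD. The groups do not overlap in 5 of the runs, and in the run on chromosome 3 the lowest PNS rat (1.16) lies below the highest Ctrl rat (1.21).

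In 6 of the 137 runs the gradients of the groups did not overlap (4.38%, background 3.38%). The run chr7:117475856-117476980 had gradients of 0.76, 0.85, 0.27 and 0.34 in Ctrl and 1.82, 1.48, 1.07 and 1.59 in PNS rats. Every PNS rat was above every Ctrl rat, and the difference was 0.94 ± 0.27 (SE; unadjusted limma p = 0.0044, adjusted 0.954; exact permutation p = 0.029). Its lower end was -0.10 ± 0.33 (SD, n = 4) in Ctrl and -0.79 ± 0.40 in PNS rats, and its higher end 0.45 ± 0.14 and 0.70 ± 0.11, so most of the difference lay at the lower end.

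The run chr6:102402178-102403409 had gradients of 0.28, 0.96, 0.78 and 0.49 in Ctrl and 1.80, 1.76, 1.16 and 1.47 in PNS rats (difference 0.92 ± 0.27 SE, exact permutation p = 0.029). The lower end was again further down in PNS, -1.36, -1.29, -0.95 and -0.89, than in Ctrl, -0.53, -0.15, -0.54 and -0.69, with no overlap. The higher ends overlapped. One probe of this run passed the first stage, at the lower end, where it was lower in PNS by 0.81 on the log2 scale.

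In chr1:185794435-185795573 the gradient was 0.16, 0.67, 1.61 and 0.97 in Ctrl and 1.76, 1.67, 1.69 and 2.01 in PNS rats (difference 0.93 ± 0.31 SE, exact permutation p = 0.029). Here the higher end separated the groups, with -0.57, 0.23, 0.03 and -0.28 in Ctrl and 0.52, 0.46, 0.39 and 0.37 in PNS rats. No probe of that higher end was well above background on any array, in the input or the bound channel, so these levels rest on dim spots. In chr5:94689777-94690713 the gradient was -0.14, 0.91, 1.27 and 0.48 in Ctrl and 1.28, 1.38, 1.61 and 1.50 in PNS rats (difference 0.81 ± 0.31 SE, exact permutation p = 0.029). The groups nearly met in that run, at 1.27 in C184 and 1.28 in C141.

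In chr3:134080500-134081508, the run with the largest difference in mean, the gradient was 0.99, 0.61, 1.21 and 0.95 in Ctrl and 1.16, 2.07, 1.84 and 2.02 in PNS rats (difference 0.83 ± 0.28 SE, exact permutation p = 0.057). The higher end was 0.46 ± 0.39 (SD, n = 4) in Ctrl and 1.38 ± 0.58 in PNS rats, and the lower end -0.48 ± 0.29 and -0.39 ± 0.23. The run chr15:79822488-79823500 went the other way, with 3.30, 1.53, 1.65 and 1.47 in Ctrl and 1.10, 0.60, 1.13 and 1.00 in PNS rats (difference -1.03 ± 0.39 SE, exact permutation p = 0.029). C180 was the highest rat by far, and the other 3 Ctrl rats also lay above all PNS rats. The higher-end probes of that run with input well above background on 8 arrays differed by 0.05 and -0.006 (PNS minus Ctrl). The higher-end probe with input well above background on 0 arrays differed by -1.36. Its lower-end probes, well above background in the input channel on 0, 0 and 4 arrays, differed by -0.28, 0.88 and 1.17. For these 6 runs the adjusted limma p was 0.954.

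Ank3 encodes ankyrin-G, a scaffold protein of the axon initial segment and of synapses, and is the gene the study followed. Of the 5 runs on chromosome 20 in the stretch that holds the probes the study named, none was among the steep runs. The run chr20:19579553-19580709 came near with a gradient of 0.96, from 0.36 down to -0.60 along the coordinate, but 13 of its 19 probes were short, so it was not a mixed run. The only mixed run among the 5, chr20:19420344-19421372, was nearly level, with a gradient of 0.12.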

How the data were processed

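MeDIP-chip arrays of prefrontal cortex DNA from 4 Ctrl and 4 PNS rats were used. The authors amplified input (Cy3) and bound (Cy5) DNA, scanned each array and deposited Feature Extraction 10.7.3.1 intensity values, background-corrected and dye-scaled within arrays. The deposited log10 ratio of the software and the authors' table of quantile-normalized log2 ratios (median signals minus background, found by rank comparison with the scanner values) served as alternatives. limma is named in the submitters' processing notes.

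Control spots were dropped, as were 403 spots with a non-uniformity flag on any of the arrays, log2(bound/input) was averaged per probe, and 375110 probes were quantile-normalized and tested with limma 3.58.1 (R 4.3.3, lmFit and eBayes, no block). Run means (25615 runs of at least 3 probes) and gradients (19345 runs) were tested the same way, with Benjamini-Hochberg adjustment over all runs. Each outer segment holds the number of probes divided by 3, rounded down. Single runs were also compared by an exact two-sided permutation over 70 assignments. The scripts were tested on simulated data. Arrays give no depth, and 4 arrays per group limit the precision. Alternatives covered normalization, background, spot filters, the rule's limits, each rat left out, and slide as a block.

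The runs, groups and tests were chosen with earlier results of these data known. Named are the 8 steepest runs, 4 on each side of the limit, the 6 with the smallest p for gradient and for mean, the 6 smallest second-stage FDRs, the run with most probes, and the Ank3 runs. No probe or genome sequence of rn4 was used here.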

Additional observations from a re-analysis of the deposited data

Results flagged for a closer look

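Within each group of 4 rats, the highest or lowest value was compared with the gap to its nearest neighbour (Dixon's limit for 4 values) in 60 sets of values. A value passed in 8 sets, where chance gives about 1 in 20 (3 sets), and 4 of the 8 were from C141, one of the 3 arrays of low spread. The median gradient of the steep runs was 1.02 in C141 beside 1.39 to 1.42 in the other PNS rats, and 1.29 in C180 beside 1.17 to 1.19 in the other Ctrl rats. In runs with short probes at the higher end, C141 had a higher end of 0.70 beside 1.27 to 1.35 and a lower end of -0.45 beside -0.20 to -0.17. In the same runs the higher end was 0.94 in C182 beside 1.07 to 1.10 in the other Ctrl rats. The gradient of chr15:79822488-79823500 was 3.30 in C180 beside 1.47 to 1.65 in the other Ctrl rats. The mean of chr3:134080500-134081508 was 0.19 in C141 beside 0.80 to 0.85 in the other PNS rats. The mean of chr6:60352780-60353554 was -0.22 in C182 beside 0.37 to 0.47 in the other Ctrl rats.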

How the results depend on the processing

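How many runs were steep depended on the processing: 75 with loess, 17 with normexp (offset 50), 0 with input spots well above background on all arrays, 364 at a limit of 0.75, 46 at a limit as far above 1, 234 with shorter outer segments (probes divided by 4), and 110 to 198 with a rat left out. Without the 3 arrays of low spread, an alternative added after seeing the data, it was 413. The authors' table, also added, made 7.63% of its mixed runs steep, and 52 of them were among the 137. The 137 runs themselves kept their direction under the other normalizations, spot filters and background correction, but not always their size. Their median gradient was 1.19 with median centring and 1.15 with the software's ratio, but 0.95 with loess and 0.45 with normexp. With normexp it was 0.68 where short probes were at the higher end and 0.29 where they were at the lower end. With each rat or the 3 arrays left out, the 137 runs also kept their direction, but the choice of runs settled this for single rats. The rule used the mean over all 8 arrays, and no gradient in a single rat (at most 3.43) was large enough to turn it. When the 3 arrays were left out, the remaining arrays had helped to choose the runs, so that setting is no independent check. Of the 137 runs, 133 kept their direction in the authors' table. With the input filter 94 of 114 did, read on the probes left and not always between the original ends. The direction of the 137 runs was not followed under other gaps, limits or segments. The share of short probes at the lower end was 35.2% with the software's ratio, 8.33% with normexp, 56.5 and 25.5% at the lower and the higher limit, 20.5% in the authors' table, 66.7% without the 3 arrays, and 38.6 to 56.0% with a rat left out. First-stage probes numbered 18 with normexp, 33 of 663 with the input filter, 192 without the 3 arrays (background 10.1%) and 86 to 170 with a rat left out. Second-stage calls numbered 25 with median centring (background 14.9%), 8 with the software's ratio (9.66%), 5 with loess (6.87%), 6 with normexp (3.27%), 9 with the input filter (8.16%), 6 at an FDR of 0.05 (3.62%), and 9 to 31 with a rat left out. Slide as a replicate block gave 7.32% first-stage probes (background 6.14%), 16 second-stage calls (11.2%) and, at an unadjusted limma p of at most 0.05, 7 run means (5.26%) and 11 gradients (5.57%). Adjusted limma calls of mean and gradient were 0 in all settings run (0 to 0 with a rat left out). Causes were not tested. Group numbers are rat numbers and pair no samples other than by slide.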
